A study of Mus musculus with 6 samples.

Results

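The CD300 genes described here encode a family of leukocyte surface receptors, and they were read on 6 arrays of cultured mouse myeloid cells. The 6 genes are Cd300a, Cd300c, Cd300lb, Cd300ld, Cd300lf and Cd300lg, out of 22180 genes tested. They were matched by gene symbol, and where a gene has several transcript clusters the one to use was chosen by its mean over all 6 arrays. Each of the 6 had a single transcript cluster with 1 symbol, so that choice decided nothing for them. The family itself was proposed with earlier results of these arrays known, and the values below are given as a description of it.

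The samples were cultures of fetal liver myeloid cells from mice, all kept with GM-CSF at 1 ng/ml. Induced cells (n = 3, arrays A, B and C) received 1000 ng/ml doxycycline for 72 hours, a treatment that the labels equate with expression of PU.1, the myeloid transcription factor encoded by Spi1. Uninduced cells (n = 3, arrays A, B and C) received no doxycycline. The labels do not describe the engineered construct or any allele that both groups share, and no culture had doxycycline without PU.1, so the drug and the factor cannot be told apart. Nothing in the labels says that the arrays of a group came from separate cultures, so each p-value measures only the spread between arrays, which may be technical.

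CD300 proteins cross the membrane once and carry a single outer domain of the immunoglobulin V type. CD300a and CD300lf have long tails with inhibitory tyrosine motifs that recruit phosphatases such as SHP-1. CD300lb, CD300c and CD300ld have short tails and signal through adaptors such as DAP12 (gene Tyrobp) and the Fc receptor gamma chain (gene Fcer1g). Several of the receptors bind phospholipids exposed on dying cells, and on macrophages, neutrophils and mast cells they tune phagocytosis and activation.

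In RefSeq, on GRCm38.p6 (the assembly also called mm10), 5 of the 6 genes lie in a cluster of 246 kb on chromosome 11, from 114889152 to 115135372. Its order is Cd300a (114889152 to 114901946), Cd300lb (114922779 to 114934371), Cd300c (114956105 to 114960507), Cd300ld (114982443 to 114989886) and, at the far end, Cd300lf (115116214 to 115135372). The gene Cd300lg (102041511 to 102055617) is on the same chromosome but 12.8 Mb away. RefSeq places 6 further CD300 genes in the cluster. Of these, 3 had a transcript cluster of their own, namely Cd300c2, Cd300ld3 and Cd300e.

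Cd300c and Cd300lf rose in induced cells, and no gene of the 6 fell past the test (limma, adjusted p under 0.05 over all 22180 genes). Among all genes tested 0.374% were called higher and 1.05% lower. All 3 induced values lay above all 3 uninduced values for 3 of the 6 genes (Cd300c, Cd300lb and Cd300lf), against 16.0% of all genes, and for none of the 6 were all 3 below, against 15.4%. The same 3 genes had an unadjusted limma p under 0.05 in the higher direction, against 11.4% of all genes, and 0 had one in the lower direction, against 16.9%. The median change of the 6 genes was 0.33 on the log2 scale, beside 0.06 over all genes. It was 0.28 over 1394 olfactory and vomeronasal receptor genes, the yardstick for background described below.

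**Figure D1:**
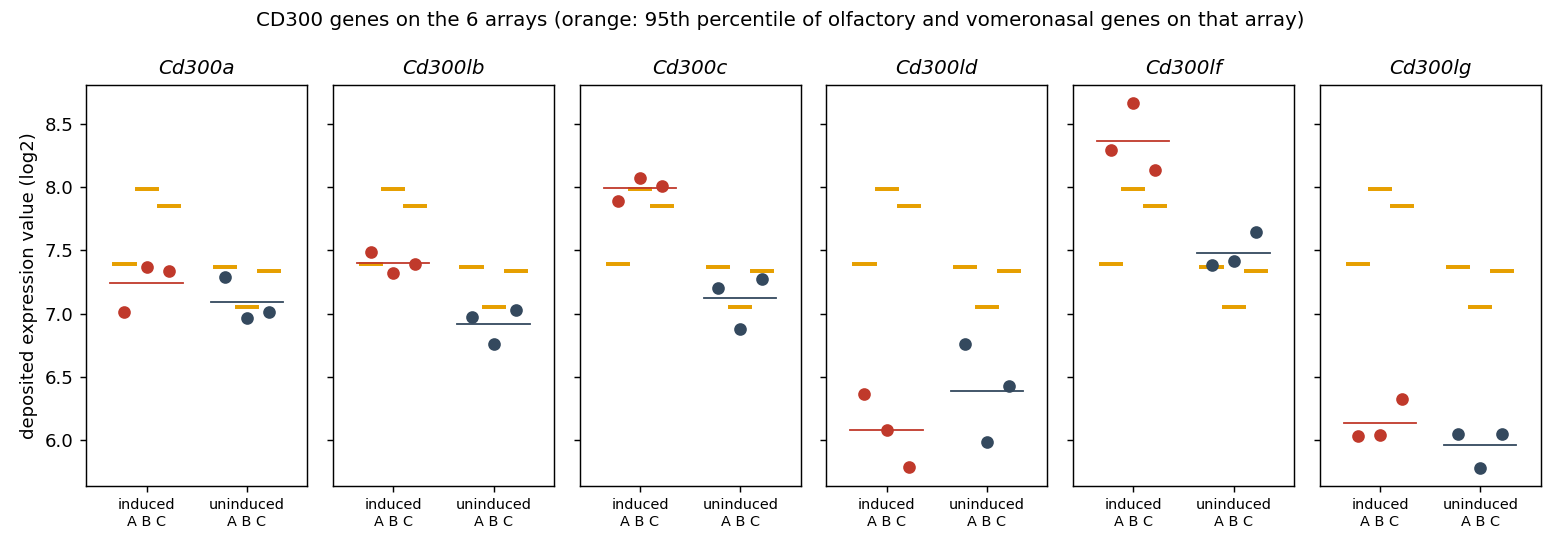
Deposited log2 value of each CD300 gene (y axis) on the 3 induced arrays, in red on the left of each panel, and the 3 uninduced arrays, in dark blue on the right, with thin lines at the group means. Orange bars mark, for each array, the 95th percentile of 1394 olfactory and vomeronasal receptor genes, which only Cd300lf exceeded on all 6 arrays.

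Levels were read against a yardstick for background. The yardstick was a class of 1394 genes for olfactory and vomeronasal receptors, which are used mainly in sensory neurons, and a value under the 95th percentile of that class on the same array is called in the range of background. That percentile was 7.39, 7.99 and 7.85 in induced A, B and C and 7.37, 7.05 and 7.34 in uninduced A, B and C, so it was higher in induced B and C than on the other arrays. The yardstick genes shifted too: 91.0% of them had a change above 0, with a median of 0.28, against 56.0% of all genes. Of the 6 CD300 genes, 2 were above the range on all 3 induced arrays and 1 on all 3 uninduced arrays, while Cd300a, Cd300ld and Cd300lg lay in it on all 6. Such levels were common, since the median of all transcript clusters, 6.53 to 6.78 by array, was under that percentile on every array. A filter at the 50th percentile of mean level kept 11090 genes, among them 4 of the 6.

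Among the receptors with inhibitory tails, Cd300lf stood on the log2 scale at 8.29, 8.67 and 8.14 in induced A, B and C, against 7.39, 7.41 and 7.65 in uninduced A, B and C. Every induced array was above every uninduced one, and all 6 were above the range of background, by 0.02 only in uninduced A. Cd300lf encodes a receptor for ceramide and phosphatidylserine and is the entry receptor of murine norovirus. Its change was 0.88 (SE 0.16, limma adjusted p = 0.0263), or 1.85-fold, with a 95% interval (unadjusted, as are those given for other genes) from 0.53 to 1.24.

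Cd300a, which encodes an inhibitory receptor for phosphatidylserine and phosphatidylethanolamine, was at 7.01, 7.37 and 7.34 in induced A, B and C and at 7.29, 6.97 and 7.02 in uninduced A, B and C. The groups overlapped, and induced A was lower than uninduced A. The change of Cd300a was 0.15 (SE 0.15, limma adjusted p = 0.478), with an interval from -0.19 to 0.48.

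Of the short-tailed receptors, Cd300c was at 7.89, 8.07 and 8.01 in induced A, B and C, against 7.21, 6.88 and 7.27 in uninduced A, B and C. The groups did not overlap. All 3 uninduced values lay in the range of background and all 3 induced values above it, by 0.50, 0.08 and 0.16 in A, B and C. The measured change of Cd300c was 0.87 (SE 0.14, limma adjusted p = 0.0161; 95% interval 0.55 to 1.19). Because the uninduced level is only a bound, the induced mean was set against the mean of that percentile on the uninduced arrays, giving 1.67-fold. That fold is not a lower limit of the rise. The same percentile averaged 7.25 on the uninduced and 7.74 on the induced arrays. With arrays level at it, a setting added after seeing the data, the change of Cd300c was 0.38.

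Cd300lb encodes an activating receptor that pairs with DAP12 in mouse cells. It was at 7.48, 7.32 and 7.40 in induced A, B and C and at 6.97, 6.76 and 7.03 in uninduced A, B and C. The groups did not overlap, yet only induced A was above the range of background, and the change of Cd300lb, 0.48 (SE 0.13, limma adjusted p = 0.100), did not pass the test.

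Cd300ld, whose mouse protein pairs with the Fc receptor gamma chain, was at 6.37, 6.08 and 5.78 in induced A, B and C and at 6.76, 5.99 and 6.43 in uninduced A, B and C. The groups overlapped, all 6 values were in the range of background, and the change of Cd300ld was -0.31 (SE 0.21, limma adjusted p = 0.303; interval -0.78 to 0.15).

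Cd300lg encodes nepmucin, a CD300 protein of vascular endothelium that binds L-selectin. It was at 6.03, 6.04 and 6.32 in induced A, B and C and at 6.05, 5.78 and 6.04 in uninduced A, B and C. These values overlapped and lay at least 1.27 below the background percentile of their own array. The change of Cd300lg was 0.17 (SE 0.14, limma adjusted p = 0.387). Of 6 endothelial markers measured, 5 were likewise in the range of background on all 6 arrays and 0 passed the test, adjusted or not.

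**Figure D2:**
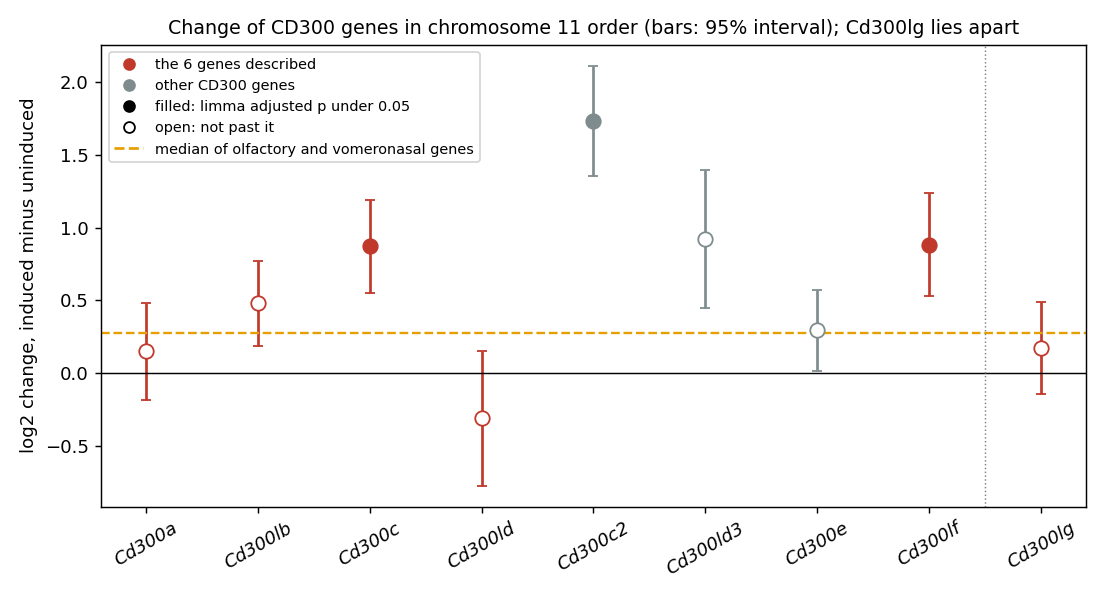
Log2 change, induced minus uninduced, with its 95% interval (y axis) for the 6 genes described (red) and 3 other CD300 genes (grey), in chromosome 11 order with Cd300lg set apart at the right. Filled points passed the limma test, namely Cd300c, Cd300c2 and Cd300lf, and the dashed line is the median change of 0.28 of the olfactory and vomeronasal receptor genes.

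Among the other CD300 genes of the cluster, Cd300c2 encodes an activating receptor of macrophages and B cells that was formerly called Cd300c or MAIR-II. It was at 6.68, 6.20 and 6.56 in induced A, B and C and at 5.01, 4.72 and 4.52 in uninduced A, B and C. Cd300c2 passed the test (measured change 1.73, SE 0.17, limma adjusted p = 0.000913), but all 6 values were in the range of background, so no fold is given. With arrays set level at the 95th percentile or the median of the yardstick genes, settings added after seeing the data, Cd300c2 did not pass (changes 1.24 and 1.42, limma adjusted p = 0.0731 and 0.0620). Cd300ld3 was the CD300 gene farthest above the range, by 1.68, 1.77 and 1.99 in induced A, B and C and by 1.36, 1.29 and 1.50 in uninduced A, B and C. Its change of 0.92 (SE 0.21, limma adjusted p = 0.0666) did not pass as deposited. Cd300ld3 did pass in 5 of 17 other settings, namely the 25th and 50th percentile filters (limma adjusted p = 0.0483 and 0.0390), the replicate block (0.0184), array weights (0.000256) and without induced A (0.00439). Cd300e, at 0.29 (limma adjusted p = 0.166), stayed in the range on all 6 arrays. How far probes of one CD300 gene bind transcripts of its paralogs was not tested.

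The windows around the transcript starts show how alike some of the genes are. RefSeq gave a window of 250 bases before to 50 bases after the start for 5 of the 6 genes. For Cd300lf and Cd300a the whole window lies inside the span given above for the gene. The start used for these genes is therefore not at the outer edge of that span. The 3 windows printed are those of the genes that rose, Cd300c and Cd300lf, and of Cd300ld, which did not pass the test. The window of Cd300ld3 is added as that of the paralog farthest above background. Each is written 5′ to 3′ on the gene's own strand, the minus strand. Capitals mark every GAGGAA on either strand (TTCCTC on the printed one), the core letters that PU.1 prefers, with its longer form GAGGAAGT. The short motif lies inside the long one.
Cd300c, chr11:114960458-114960757: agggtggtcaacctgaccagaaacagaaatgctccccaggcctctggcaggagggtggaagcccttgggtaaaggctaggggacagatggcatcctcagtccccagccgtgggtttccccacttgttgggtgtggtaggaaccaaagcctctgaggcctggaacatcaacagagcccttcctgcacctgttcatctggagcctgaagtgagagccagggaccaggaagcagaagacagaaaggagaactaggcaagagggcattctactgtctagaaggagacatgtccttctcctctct
Cd300lf, chr11:115133943-115134242: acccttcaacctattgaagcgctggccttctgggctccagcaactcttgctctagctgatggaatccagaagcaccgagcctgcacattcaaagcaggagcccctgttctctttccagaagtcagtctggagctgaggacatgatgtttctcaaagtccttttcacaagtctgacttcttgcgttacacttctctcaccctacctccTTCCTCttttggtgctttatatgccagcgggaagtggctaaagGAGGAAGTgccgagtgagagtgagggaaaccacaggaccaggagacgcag
Cd300ld, chr11:114989837-114990136: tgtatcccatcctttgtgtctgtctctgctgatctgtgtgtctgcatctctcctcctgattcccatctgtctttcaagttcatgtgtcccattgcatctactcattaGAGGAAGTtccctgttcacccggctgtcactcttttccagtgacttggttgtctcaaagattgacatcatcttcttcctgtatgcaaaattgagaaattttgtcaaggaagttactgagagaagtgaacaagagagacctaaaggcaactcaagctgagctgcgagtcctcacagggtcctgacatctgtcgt
Cd300ld3, chr11:115048281-115048580: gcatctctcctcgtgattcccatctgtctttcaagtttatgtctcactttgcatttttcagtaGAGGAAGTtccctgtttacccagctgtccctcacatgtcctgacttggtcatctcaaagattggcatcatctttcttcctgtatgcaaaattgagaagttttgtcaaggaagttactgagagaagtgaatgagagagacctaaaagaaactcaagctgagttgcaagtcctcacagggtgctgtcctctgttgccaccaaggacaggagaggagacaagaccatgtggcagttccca

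The window of Cd300lf held 2 copies of GAGGAA, of which 1 begins at the start base used for that window and reads GAGGAAGT. The other lies on the opposite strand, beginning 43 bases before that start, which is inside the gene's span. The window of Cd300ld held 1 copy, also GAGGAAGT, beginning 143 bases before the start. Cd300a had 1 short copy, 39 bases before its start. Cd300c and Cd300lb had none in these windows. Of the further CD300 genes, Cd300ld3, Cd300ld4 and Cd300ld5 each held GAGGAAGT once, beginning 187 bases before the start. Cd300c2 held 1 short copy, 80 bases before its start, and Cd300e had none. Of all 32851 windows of 300 bases in the RefSeq table, 28.3% held GAGGAA and 3.20% held GAGGAAGT on either strand. A match is only a run of letters, and whether these matches bear on the values was not tested. The windows of Cd300ld4 and Cd300ld5 were letter for letter the same, and that of Cd300ld3 matched them at 285 of 300 aligned positions. The window of Cd300ld matched that of Cd300ld3 at 228 of 346 aligned positions, gaps included, or 65.9%. Pairs that included any CD300 gene other than Cd300ld, Cd300ld3, Cd300ld4 and Cd300ld5 matched at 47.4% to 54.1% of aligned positions.

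The genes that work with CD300 receptors mostly did not pass the test. Tyrobp, the DAP12 adaptor, was the exception, at 10.65, 10.74 and 10.60 in induced A, B and C against 7.34, 7.30 and 8.08 in uninduced A, B and C, a change of 3.09 (SE 0.20, limma adjusted p = 5.82e-05). All 3 induced values were above all 3 uninduced values. Fcer1g averaged 11.53 ± 0.08 in induced and 11.37 ± 0.09 in uninduced cells (SD, n = 3 each). Its groups did not overlap either as deposited, but the change of 0.17 did not pass (limma adjusted p = 0.352). Hcst, the adaptor DAP10, averaged 7.20 ± 0.05 in induced and 7.22 ± 0.10 in uninduced cells (SD, n = 3 each), with overlap and a change of -0.02 (limma adjusted p = 0.924).

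Of 10 measured kinases and effectors downstream of such adaptors 0 passed, and 0 had an unadjusted p under 0.05. Their changes lay between -0.37 and 0.30 (median -0.07). The 4 genes of the inhibitory side, the phosphatases Ptpn6 (SHP-1), Ptpn11 (SHP-2) and Inpp5d (SHIP-1) and the kinase Csk, had changes between -0.53 and -0.06 as deposited, and 0 passed, though 2 had an unadjusted p under 0.05 in the lower direction, a threshold that 16.9% of all genes met in that direction. The brightest of these were Ptpn6, at -0.06 (limma adjusted p = 0.782), and Inpp5d, at -0.47 (limma adjusted p = 0.137). None of 6 receptors reported to work with CD300 proteins passed (median -0.24, 1 lower at an unadjusted p under 0.05), and none of 12 other phosphatidylserine receptors and their bridging proteins (median 0.16, 1 higher at an unadjusted p under 0.05, lowest limma adjusted p = 0.0919).

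**Figure D3:**
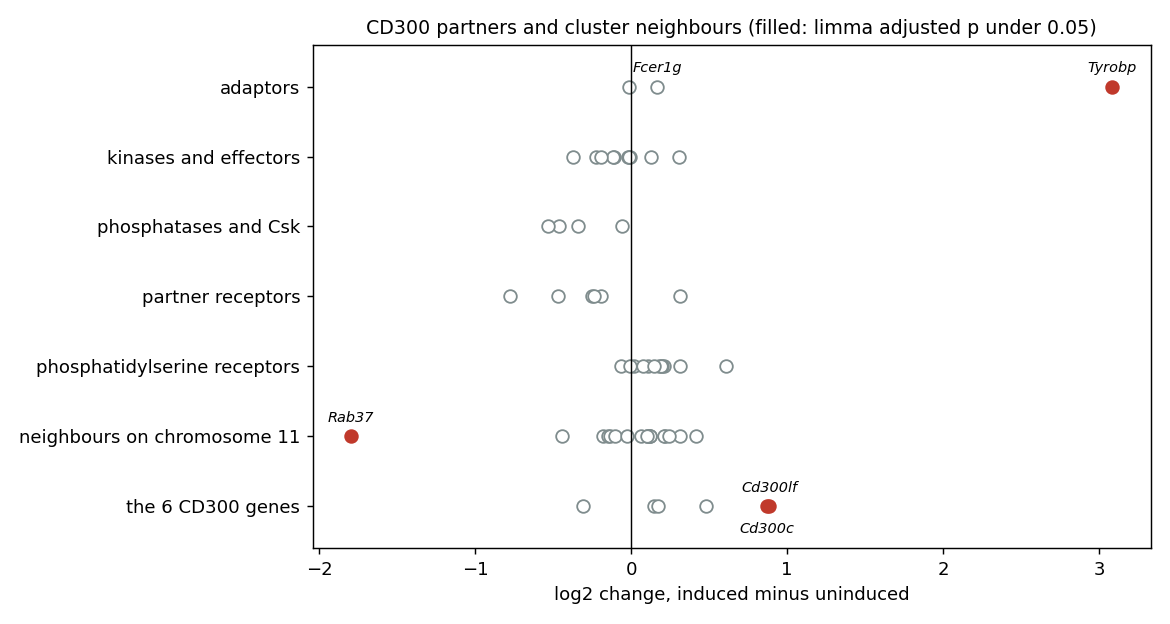
Log2 change, induced minus uninduced (x axis), of each measured gene in the lists of CD300 signalling partners, phosphatidylserine receptors, chromosome 11 neighbours and the 6 CD300 genes (rows). Filled red points passed the limma test, which were Tyrobp, Rab37, Cd300c and Cd300lf, and open grey points did not.

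Within 250 kb of the cluster RefSeq lists 21 genes outside the CD300 family, of which 18 were measured, 0 rose and 1 fell, with a median change of 0.10. The gene that fell was Rab37, which encodes a small GTPase of vesicle transport. Its span (115091331 to 115162773) contains all of Cd300lf. Rab37 was at 8.70, 9.19 and 8.62 in induced A, B and C, against 10.54, 10.63 and 10.74 in uninduced A, B and C, a change of -1.80 (SE 0.17, limma adjusted p = 0.000558). As deposited, Cd300lf and the gene around it thus moved in opposite directions.

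By the root mean square difference of the log2 values on the 6 arrays, after each gene's own mean was taken off, the 3 genes nearest to Cd300c were Treml4 (0.0635), Mir143 (0.0843) and Gm8801 (0.0856). Those nearest to Cd300lf were Milr1 (0.127), Slc15a3 (0.136) and Defb34 (0.144), all 3 in the range of background on all 6 arrays. Cd300c and Cd300lf differed from each other by 0.171, which made Cd300c the 11th nearest gene to Cd300lf and Cd300lf the 67th nearest to Cd300c.

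The labelled cell type was checked against markers. Among 9 neutrophil and granule genes 7 exceeded the background range on every induced array and 6 on every uninduced one, as did 5 and 4 of 8 macrophage genes. Of the macrophage genes 5 rose (Adgre1, Cd68, Mrc1, Mpeg1 and Lyz2). Csf1r, Itgam and Cd14 did not pass, and Cd14, singled out after its values were seen, had a change of -0.78 (limma adjusted p = 0.153). The macrophage list's mean log2 value ran from 8.67 to 9.01 over the induced arrays, against 7.75 to 7.86 over the uninduced ones. Of the neutrophil genes 3 rose (S100a9, Ltf and Mpo) and 6 did not pass, with a median change of 0.27 beside 0.28 for the yardstick genes. The neutrophil list's mean was 10.29 to 10.72 over the induced arrays and 9.93 to 10.05 over the uninduced ones. These 8 marker genes were higher in the same cells as Cd300c and Cd300lf, and whether that bears on the CD300 values was not tested. In such bulk samples more cells of a type and more RNA per cell cannot be told apart. Among markers of B cells (5), T and NK cells (5), dendritic cells (5), erythroid cells (3) and megakaryocytes (4) none was above the range on all arrays of either group, and of 8 mast cell and basophil genes 1 was on all induced and 2 on all uninduced arrays. Of 4 hepatocyte genes 0 were on all induced and 1 on all uninduced arrays. None of these markers outside the macrophage and neutrophil lists passed the test, and at most 2 in a list had an unadjusted p under 0.05.

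The calls of Cd300c and Cd300lf were not firm. With arrays set level at the median of the olfactory and vomeronasal genes, a setting added after seeing the data, the changes were 0.55 for Cd300c and 0.57 for Cd300lf (limma adjusted p = 0.114 for each), and at their 95th percentile 0.38 and 0.39 (limma adjusted p = 0.182 and 0.205), so neither passed. The median change of all genes was then -0.26 and -0.43, against 0.06 as deposited. Measured from its own array's percentile, Cd300c still had no overlap between groups, at 0.50, 0.08 and 0.16 in induced and -0.16, -0.17 and -0.07 in uninduced A, B and C. Cd300lf did overlap, at 0.90, 0.68 and 0.28 in induced and 0.02, 0.36 and 0.31 in uninduced A, B and C. Both calls also ended without induced B, without induced C, without uninduced A or without uninduced B, and that of Cd300lf without uninduced C as well. In those fits the limma adjusted p lay between 0.0549 and 0.0918 for Cd300c and between 0.0505 and 0.104 for Cd300lf. Median centring, with a median over all genes of -0.08, called Cd300c alone (0.207% of all genes higher), and cyclic loess called both (0.352%). Without induced A, Cd300lb passed too at 0.44 (limma adjusted p = 0.0475), but then 9.01% of all genes were called higher. Array weights called 4 of the 6 genes higher and Cd300ld lower, where 26.3% of all genes were called higher and 25.6% lower.

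**Figure D4:**
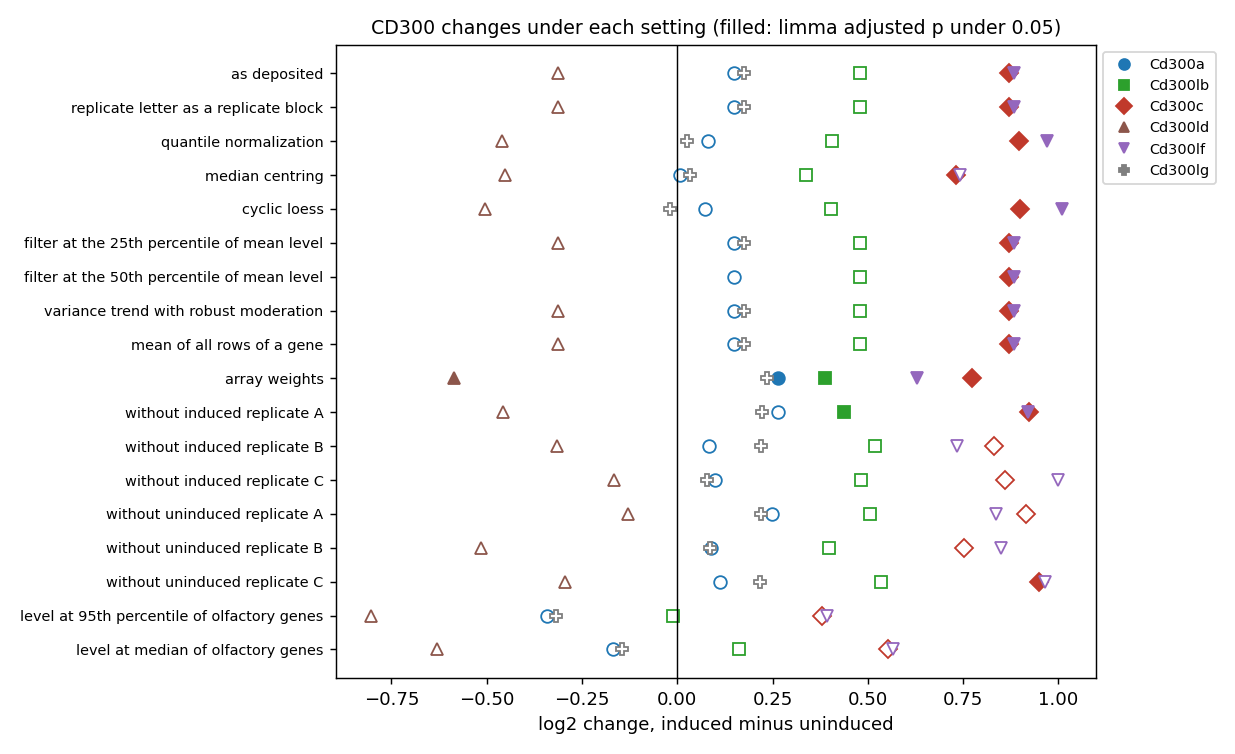
Log2 change, induced minus uninduced (x axis), of each CD300 gene under the deposited values and each other setting (rows), with filled marks where the limma adjusted p was under 0.05. Cd300c and Cd300lf stayed above 0 in every setting, between 0.38 and 0.95 and between 0.39 and 1.01, and Cd300ld stayed below 0.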

How the data were processed

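Affymetrix Mouse Gene 2.0 ST arrays measured RNA of 6 samples. The log2 values deposited by the authors were used as they stood, for 41345 transcript clusters. Partek and mm10 are named per the submitters' processing notes. For version, background correction and normalization: not given in the sources used here. That the scale is log2 was read from the values. Precision is limited by the number of arrays.

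The platform annotation gave 1 symbol to 23521 transcript clusters and several to 1814; 16010 were not listed. Groups follow the labels. The comparison used limma 3.58.1 (lmFit and eBayes in R 4.3.3, two-sided, no filter, no block), with Benjamini-Hochberg adjustment over 22180 genes, and was tested on simulated data. The labels do not say that the letters A, B and C pair the arrays. Deviations from group means correlated at -0.31, -0.28 and 0.42 between the arrays of a letter. With 3 arrays per group these values cannot settle whether the arrays are paired. Members, gene lists and motifs were chosen with earlier results of these data known. Of 105 names in the lists 94 were measured, and the count of each list is given. Named with values are the 6 genes, the other CD300 genes, list members and neighbours past the test, otherwise up to 2 of the brightest in a list, and the 3 nearest patterns. Windows were aligned with Biopython 1.88 (match 1, mismatch -1, gap -2, extension -0.5). Alternatives were blocking by letter, quantile normalization, median centring, cyclic loess, filters at the 25th and 50th percentile, a robust variance trend, averaging all transcript clusters of a gene, array weights, an adjusted p under 0.01, the 99th percentile for background and leaving out each array.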

Additional observations from a re-analysis of the deposited data

Results flagged for a closer look

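The annotation gives 2 further transcript clusters of the CD300 cluster to 4 genes at once (Cd300ld3, Cd300ld4, Cd300ld5 and Cd300lf), so they entered no comparison and stand for no single gene. They are listed because they name CD300 genes and were left out above, whatever their values. In both, every induced value was above every uninduced value, which held for 16.0% of all genes tested. The first was at 9.07, 9.47 and 9.40 in induced A, B and C and at 8.71, 8.18 and 8.80 in uninduced A, B and C, a difference of 0.75. The second was at 9.03, 9.36 and 9.32 in induced A, B and C and at 8.71, 8.17 and 8.72 in uninduced A, B and C, a difference of 0.71. No test is given for them.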

How the results depend on the processing

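Cd300c and Cd300lf kept their direction in all 17 other settings in which they were fitted, and passed the test in 11 and 9 of them. Of the 6 CD300 genes 2 passed as deposited, 1 after median centring, 5 with array weights, 0 at an adjusted p under 0.01, 0 with arrays level at either the median or the 95th percentile of the yardstick class (olfactory and vomeronasal receptor genes, settings added after seeing the data), and 0 to 3 with 1 array left out. Genes called higher numbered 83 as deposited, 174 with the replicate letter as a block, 46 after median centring, 5825 with array weights, 18 and 23 with arrays level at that 95th percentile and median, 43 at an adjusted p under 0.01, and 45 to 1998 with 1 array left out. Genes called lower numbered 232, and in the same settings 425, 153, 5681, 100, 66, 55 and 47 to 3535, with 142 after cyclic loess. Among the fits with 1 array left out, the most calls came without induced A, and the fewest without uninduced B for higher and without induced C for lower. Correlations between arrays ran from 0.973 to 0.988 within groups and from 0.942 to 0.991 between groups. The most alike pair of arrays was thus from different groups. The replicate block, by letters whose meaning the labels do not give, left the 2 CD300 calls in place. At the 99th percentile 0 of the 6 genes were above the range of background on all arrays of either group, against 2 in induced and 1 in uninduced cells at the 95th. Cd300a, Cd300lb and Cd300lg, which did not pass as deposited, lay below 0 with arrays level at the 95th percentile (-0.34, -0.01 and -0.32). Why the settings differ was not tested.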
